A study of Mus musculus with 8 samples.

Results

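Voltage-gated potassium channels repolarise the ventricular myocyte after each beat, and 9 of their genes are described here: Kcnip2, Kcnd2, Kcnd3, Kcna4, Kcna5, Kcnv2, Kcnq1, Kcnh2 and Kcne1. They were taken by symbol from a table of 24341 genes, and all 9 were found. RNA was sequenced from lysates of heart ventricle of male mice, 4 Pos Cre and 4 Neg Cre. Mice of both groups were homozygous for floxed Med13 and Med13l (Med13/13L fl/fl), ate tamoxifen chow and were 12 weeks old, and 4 weeks had passed since tamoxifen. Pos Cre mice also carry a Cre recombinase, which the study's title describes as acting in cardiomyocytes. Neg Cre mice lack it. The labels do not name the promoter that drives Cre, and no mice with Cre but without floxed alleles were analysed here. Libraries are numbered by their titles (Pos Cre 1 to 4, Neg Cre 1 to 4).

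A voltage-gated potassium channel is a tetramer of pore-forming alpha subunits that opens on depolarisation, and accessory subunits set its gating and its number at the cell surface. In mouse ventricle the fast transient outward current is carried by Kv4 subunits (Kcnd2 encodes Kv4.2 and Kcnd3 Kv4.3) with the calcium-binding accessory subunit KChIP2 (Kcnip2), and a slower transient outward current by Kv1.4 (Kcna4). Kv1.5 (Kcna5) carries a rapidly activating, slowly inactivating current called ultrarapid in human atrium. Delayed rectifier currents are carried by Kv7.1 (Kcnq1) with its accessory subunit minK (Kcne1) and by ERG1 (Kcnh2). The electrically silent subunit Kv8.2 (Kcnv2) assembles with other pore-forming subunits and alters their gating. The slow and rapid delayed rectifiers of Kv7.1 and ERG1 are prominent in human ventricle and small in that of adult mice.

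Estimated depth, in units of 1000000 fragments, was 4.54 to 23.5 in Pos Cre and 5.50 to 15.3 in Neg Cre libraries. Pos Cre 3 and 4 and Neg Cre 2 had 10.3 to 15.98 FPKM of the ribosomal precursor Rn45s, against 396 to 1053 FPKM in the other libraries. These 3 libraries were also the deepest, at 15.3 to 23.5 in the same units, against 4.54 to 8.69 in the other 5. Changes are therefore also given within the set of 5 libraries with high Rn45s and within the set of 3 with low Rn45s, and these sets differ in depth too. The low set has 2 Pos Cre libraries and 1 Neg Cre library, Neg Cre 2, which limma takes to vary like the others, so a call missed there says little. Both targeted genes were lower in each Pos Cre library: Med13 averaged 8.13 ± 0.554 FPKM in Pos Cre and 12.0 ± 2.23 FPKM in Neg Cre libraries, and Med13l 2.52 ± 0.113 and 4.92 ± 0.814 FPKM in the same order (SD, n = 4 each, whole genes, with the deleted exons not measured apart). Both were called lower by limma (adjusted p = 0.00612 for Med13 and 3.17e-04 for Med13l) at log2 changes of -0.50 and -0.74. Fixed sum scaling gave each library an equal FPKM sum, counted without Rn45s, small RNAs and genes with symbols beginning with Rpl or Rps. Under it the Med13 change was -0.21 and not called (limma adjusted p = 0.184). Within the Rn45s sets, with fewer libraries, it was -0.51 in the high set (adjusted p = 0.0529) and -0.37 in the low set (adjusted p = 0.0532). The library names of Neg Cre 1 and Neg Cre 2 both hold 2M, and whether they come from 1 mouse is not stated. Nothing in the labels says that the libraries of a group came from separate mice, so the p-values measure the spread between these libraries.

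Of the 9 channel genes, 6 fell in Pos Cre ventricles (Kcnip2, Kcnd2, Kcnv2, Kcne1, Kcnh2 and Kcnq1), 1 rose (Kcna4) and 2 were not called (Kcnd3 and Kcna5). Calls rest on limma with log2(FPKM + 1), fitted to the 11685 genes that averaged 1 FPKM or more, at a Benjamini-Hochberg adjusted p under 0.05. FPKM are fragments per kilobase of transcript, scaled to 1000000 mapped fragments, and the change of a low gene is understated on this scale. Among all tested genes 39.2% were called, 19.4% lower and 19.7% higher, and the groups did not overlap for 38.0%. For the channel genes those numbers were 7 of 9 called and 7 of 9 without overlap, at a median log2 change of -0.45 against -0.01 over all tested genes. Kcnv2 and Kcne1 averaged under 1 FPKM in Pos Cre libraries and were tested through their Neg Cre level, so the counts are a description and not support for a general fall.

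**Figure D1:**
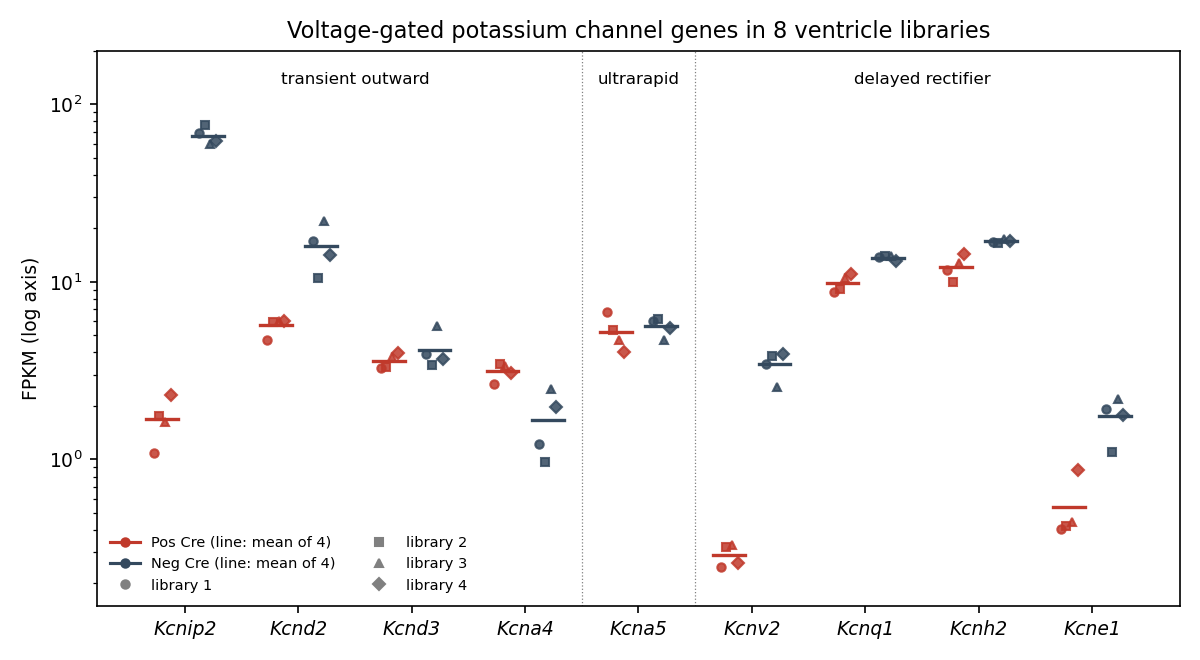
FPKM (log axis) of the 9 genes in each library, Pos Cre left of Neg Cre, with 1 symbol per library number and a line at the mean of 4. Kcnip2 lies at 1.09 to 2.31 FPKM in Pos Cre and at 59.7 to 76.2 FPKM in Neg Cre libraries, while the groups overlap for Kcnd3 and Kcna5.

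The channel gene that changed most was Kcnip2 (chromosome 19, 45792346 to 45816063, mm10), the KChIP2 subunit that binds the N-terminus of Kv4 channels and raises their surface expression. It stood at 1.09, 1.75, 1.63 and 2.31 FPKM in Pos Cre 1 to 4, against 68.5, 76.2, 59.7 and 62.2 FPKM in Neg Cre 1 to 4. The lowest Neg Cre library was far above the highest Pos Cre library. At a transcript length of 2395 bases the level in Pos Cre 1 corresponds to about 11.8 fragments, so that library's value is imprecise. The mean was 1.69 ± 0.501 FPKM in Pos Cre and 66.6 ± 7.35 FPKM in Neg Cre libraries (SD, n = 4 each), 39.4-fold lower in Pos Cre. Its log2 change of -4.66 (95% interval -4.97 to -4.36, limma adjusted p = 5.21e-08) was the lowest of the 11685 tested genes. That rank is on log2(FPKM + 1), which understates the changes of low genes. Within the Rn45s sets the change of Kcnip2 was -4.75 (high) and -4.71 (low). Kcnip2 was the seventh of the 9 genes by mean level in Pos Cre libraries and the first in every Neg Cre library. In Pos Cre libraries it made up 3.98% ± 0.968 of their summed FPKM, against 51.3% ± 4.82 in Neg Cre libraries. Of 8 cardiomyocyte markers, 7 were called lower too, and Actn2 was not called. Their summed level was 15967 to 17603 FPKM in Pos Cre and 44227 to 48206 FPKM in Neg Cre libraries. The ratio of means was 0.359 for this sum, against 0.0254 for Kcnip2. It differed by marker, from 0.126 for Ryr2 to 0.990 for Actn2. Myl2 was the largest part of the sum, at 6941 FPKM in Pos Cre and 20614 FPKM in Neg Cre libraries. The part of these markers in the result was not tested, and in lysates fewer cardiomyocytes and less RNA per cardiomyocyte cannot be told apart.

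Kcnd2 (chromosome 6, 21216109 to 21729805), the pore-forming Kv4.2 subunit, also fell. It stood at 4.72, 5.96, 6.05 and 5.99 FPKM in Pos Cre 1 to 4, against 16.9, 10.5, 22.0 and 14.2 FPKM in Neg Cre 1 to 4. Every Pos Cre library was below every Neg Cre library, and the Neg Cre libraries themselves spread over a wide range, with Neg Cre 3 highest and Neg Cre 2 lowest. The mean was 5.68 ± 0.640 FPKM in Pos Cre and 15.9 ± 4.84 FPKM in Neg Cre libraries, 2.80-fold lower in Pos Cre (log2 change -1.30, 95% interval -1.71 to -0.90, limma adjusted p = 2.88e-04). Within the Rn45s sets the change was -1.55 in the high and -0.71 in the low set, whose single control, Neg Cre 2, held the least Kcnd2 of the 4 controls.

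Kcnd3 (chromosome 3, 105448190 to 105674002), which encodes Kv4.3, the other Kv4 subunit of the ventricle, was not called. Its levels were 3.27, 3.33, 3.75 and 3.99 FPKM in Pos Cre 1 to 4, against 3.90, 3.41, 5.60 and 3.69 FPKM in Neg Cre 1 to 4. The groups overlapped, and Neg Cre 3 was again the highest control. The means were 3.59 ± 0.343 FPKM in Pos Cre and 4.15 ± 0.989 FPKM in Neg Cre libraries (log2 change -0.15, 95% interval -0.44 to 0.14, limma adjusted p = 0.392). Its sign differed between the Rn45s sets, at -0.31 in the high and 0.14 in the low set. An antisense transcript, Kcnd3os, shares 165 exon bases with Kcnd3 in the GENCODE annotation. Kcnd3os was listed at 0.127 FPKM or less in Pos Cre libraries, against 1.12, 0.311, 0.517 and 0.01 FPKM in Neg Cre 1 to 4. Whether reads were counted by strand is not stated.

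Kcna4 (chromosome 2, 107290589 to 107298504), the Kv1.4 subunit of the slow transient outward current, which in mice is typical of the septum and inner ventricular wall, was the channel gene that rose. It stood at 2.64, 3.45, 3.34 and 3.08 FPKM in Pos Cre 1 to 4, against 1.23, 0.961, 2.50 and 1.97 FPKM in Neg Cre 1 to 4. The groups did not overlap, but Pos Cre 1 was close to Neg Cre 3. The mean was 3.13 ± 0.356 FPKM in Pos Cre and 1.66 ± 0.700 FPKM in Neg Cre libraries, 1.88-fold higher in Pos Cre (log2 change 0.67, 95% interval 0.28 to 1.05, limma adjusted p = 0.0119). Within the Rn45s sets it was 0.50 (high) and 1.10 (low), and the call was lost in the high-Rn45s libraries alone (adjusted p = 0.137). The call was also lost with no filter on low genes (adjusted p = 0.0673) and in the 6 libraries whose column names hold the word trim (adjusted p = 0.0627).

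Because a ratio of genes within a library does not depend on how the library was scaled, the makeup of the transient outward genes can be read directly. Kcnip2 over the sum of Kcnd2 and Kcnd3 was 0.136, 0.188, 0.166 and 0.231 in Pos Cre 1 to 4, against 3.29, 5.48, 2.16 and 3.47 in Neg Cre 1 to 4. Transcripts of the accessory subunit thus outnumbered those of the pore subunits per length in each Neg Cre library and fell short of them in each Pos Cre library. Kcnd3 over Kcnd2 was 0.635 ± 0.0589 in Pos Cre and 0.267 ± 0.0406 in Neg Cre libraries, so Kv4.2 transcripts remained the more abundant in both. Kcna4 over the Kv4 sum was 0.338 ± 0.0256 in Pos Cre and 0.0820 ± 0.0227 in Neg Cre libraries (SD, n = 4 each). For none of these ratios did the groups overlap. Summed over the 4 transient outward genes the level was 14.1 ± 1.62 FPKM in Pos Cre and 88.4 ± 4.20 FPKM in Neg Cre libraries, and most of that gap was Kcnip2.

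**Figure D2:**
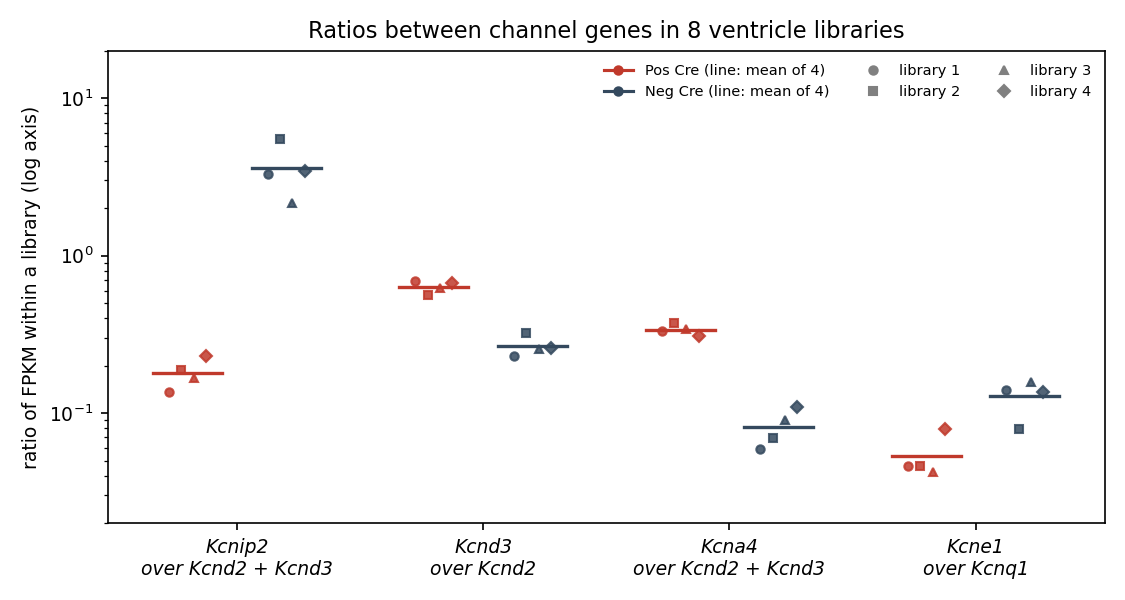
Ratios of FPKM between channel genes within each library (log axis), Pos Cre left of Neg Cre, with 1 symbol per library number and a line at the mean of 4. Kcnip2 over Kcnd2 + Kcnd3 is below 1 in the 4 Pos Cre libraries and above 1 in the 4 Neg Cre libraries, and Kcne1 over Kcnq1 in Pos Cre 4 comes close to Neg Cre 2.

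The 250 bases before the RefSeq start site (GRCm38.p6, gene strand, 5′ to 3′) are shown for the 3 transient outward genes that were called, 2 lower and 1 higher, so that the regions before their starts can be set side by side. The Kcnip2 and Kcna4 starts are also the ends of their loci in the deposited table, while the Kcnd2 locus there begins further downstream. Capitals mark GGGCGG, the GC box bound by Sp1-type factors, on either strand (CCGCCC where it lies on the other strand). The windows are chr19:45816064-45816313 (minus strand) for Kcnip2, chr6:21215096-21215345 (plus strand) for Kcnd2 and chr2:107290339-107290588 (plus strand) for Kcna4.
Kcnip2: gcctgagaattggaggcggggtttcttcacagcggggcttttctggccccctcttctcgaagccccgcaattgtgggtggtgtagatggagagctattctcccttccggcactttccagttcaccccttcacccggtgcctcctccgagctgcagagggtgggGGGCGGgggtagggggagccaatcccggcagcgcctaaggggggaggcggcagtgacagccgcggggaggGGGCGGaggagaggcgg
Kcnd2: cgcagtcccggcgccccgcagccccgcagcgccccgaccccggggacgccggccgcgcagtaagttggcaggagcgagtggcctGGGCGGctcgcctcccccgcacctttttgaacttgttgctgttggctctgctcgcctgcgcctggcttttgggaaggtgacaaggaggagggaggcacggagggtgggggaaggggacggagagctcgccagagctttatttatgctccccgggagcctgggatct
Kcna4: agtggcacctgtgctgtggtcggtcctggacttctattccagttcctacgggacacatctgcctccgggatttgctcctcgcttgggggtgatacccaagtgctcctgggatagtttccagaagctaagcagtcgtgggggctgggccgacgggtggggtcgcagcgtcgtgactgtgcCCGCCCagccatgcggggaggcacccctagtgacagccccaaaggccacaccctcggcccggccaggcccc
The GC box stood in Kcnip2 with its first base at positions -87 and -17 from the start, in Kcnd2 at -166 and in Kcna4 at -71. Among the 6 channel genes with a window in the RefSeq table it was in 4 (also in Kcnh2, not in Kcnd3 or Kcna5), against 32.7% of all 32851 windows. Of 5 other motifs searched on both strands, none was found in any of the 6 windows. The TATA box was searched as TATAAA and stood in 12.4% of all windows of that length. The site of GATA factors was searched as AGATAA, which 9.99% of the windows held. The E-box was searched as CACGTG and was in 6.02% of them. The site of Iroquois factors was searched as ACANNTGT, found in 6.31% of windows, and a nuclear receptor site as AAGGTCA, found in 4.08%. The GC box was thus present before genes that fell and before the gene that rose, and GC content of the windows was 66.8% for Kcnip2, 68.8% for Kcnd2 and 65.2% for Kcna4, against a median of 52.4% over all windows, so the share of all windows with a GC box is not matched for base composition. No protein sequence was used here.

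Kcna5 (chromosome 6, 126532551 to 126535555), the Kv1.5 subunit, was not called. It stood at 6.75, 5.35, 4.67 and 4.04 FPKM in Pos Cre 1 to 4, against 5.98, 6.20, 4.73 and 5.51 FPKM in Neg Cre 1 to 4. The groups overlapped, with both the highest and the lowest library in the Pos Cre group. The means were 5.20 ± 1.16 FPKM in Pos Cre and 5.60 ± 0.654 FPKM in Neg Cre libraries (log2 change -0.10, 95% interval -0.40 to 0.20, limma adjusted p = 0.586). Within the Rn45s sets the signs differed, at 0.14 in the high and -0.43 in the low set. Kv1.5 is also found in atrium and in smooth muscle. The summed level of 5 atrial markers ran from 11.0 to 58.4 FPKM in Pos Cre and from 4.90 to 110 FPKM in Neg Cre libraries. Among these markers Myl7 was at 19.6 FPKM in Pos Cre 4 and 58.2 FPKM in Neg Cre 1, and at 0.730 FPKM or less in every other library. The sum of 7 smooth muscle and pericyte markers was 924 to 1375 FPKM in Pos Cre and 460 to 604 FPKM in Neg Cre libraries. Acta2 alone averaged 779 FPKM in Pos Cre and 194 FPKM in Neg Cre libraries. Of the 7, 3 were called higher, 1 lower and 3 were not called. The part of either list in the Kcna5 level was not tested.

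The delayed rectifier genes that fell most were the subunits with the lowest levels. Kcnv2 (chromosome 19, 27322619 to 27337179), the silent Kv8.2 subunit, which gives no current alone, stood at 0.248, 0.322, 0.328 and 0.262 FPKM in Pos Cre 1 to 4, against 3.45, 3.81, 2.55 and 3.92 FPKM in Neg Cre 1 to 4. The groups were far apart and the Pos Cre libraries close together. The mean was 0.290 ± 0.0408 FPKM in Pos Cre and 3.43 ± 0.622 FPKM in Neg Cre libraries, 11.8-fold lower in Pos Cre (log2 change -1.77, 95% interval -2.04 to -1.50, limma adjusted p = 3.66e-06). With a pseudocount of 0.1 in place of 1 the log2 change was -3.17. It was -1.73 within the high and -1.89 within the low Rn45s set. At a transcript length of 5108 bases the level of Kcnv2 in Pos Cre 1 corresponds to about 5.75 fragments, so that library's value is imprecise.

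Kcne1 (chromosome 16, 92346001 to 92359468) encodes minK, which slows the opening of Kv7.1. It stood at 0.405, 0.421, 0.447 and 0.870 FPKM in Pos Cre 1 to 4, against 1.91, 1.10, 2.19 and 1.78 FPKM in Neg Cre 1 to 4. Pos Cre 4 was nearer to Neg Cre 2 than to the other Pos Cre libraries, and the groups did not overlap. The mean was 0.536 ± 0.224 FPKM in Pos Cre and 1.75 ± 0.461 FPKM in Neg Cre libraries, 3.26-fold lower in Pos Cre (log2 change -0.83, 95% interval -1.18 to -0.49, limma adjusted p = 0.00188). It was -1.06 within the high and -0.36 within the low Rn45s set, where it was not called against the single control, Neg Cre 2, the lowest in Kcne1 of the 4 (adjusted p = 0.223). With a pseudocount of 0.1 the log2 change was -1.56. In Pos Cre 1 the level corresponds to about 5.84 fragments at 3174 bases.

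The pore-forming genes of the delayed rectifiers fell less. Kcnq1 (chromosome 7, 143107254 to 143427042), the Kv7.1 subunit, stood at 8.74, 9.15, 10.5 and 11.05 FPKM in Pos Cre 1 to 4, against 13.7, 13.9, 14.0 and 13.1 FPKM in Neg Cre 1 to 4. The Neg Cre libraries lay close together and above every Pos Cre library. The mean was 9.87 ± 1.10 FPKM in Pos Cre and 13.7 ± 0.422 FPKM in Neg Cre libraries, 1.39-fold lower in Pos Cre (log2 change -0.44, 95% interval -0.63 to -0.25, limma adjusted p = 0.00255). It was -0.55 within the high and -0.34 within the low Rn45s set. The long noncoding RNA Kcnq1ot1 runs antisense within Kcnq1, sharing 121 exon bases in GENCODE, and was at 0.253 ± 0.0244 FPKM in Pos Cre and 0.324 ± 0.0598 FPKM in Neg Cre libraries, under the level tested. A further antisense gene there, 4933417O13Rik, was at 0.128 FPKM or less in all libraries.

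Kcnh2 (chromosome 5, 24319589 to 24351604), which encodes ERG1 of the rapid delayed rectifier, stood at 11.6, 10.02, 12.7 and 14.4 FPKM in Pos Cre 1 to 4, against 16.7, 16.6, 17.4 and 17.0 FPKM in Neg Cre 1 to 4. The Neg Cre libraries again lay within a narrow range above all Pos Cre libraries. The mean was 12.2 ± 1.85 FPKM in Pos Cre and 16.9 ± 0.370 FPKM in Neg Cre libraries, 1.39-fold lower in Pos Cre (log2 change -0.45, 95% interval -0.68 to -0.23, limma adjusted p = 0.00511). It was -0.61 within the high and -0.28 within the low Rn45s set, where it was not called against the single control (adjusted p = 0.109). The falls of Kcnq1 and Kcnh2 depend on the scaling of the libraries. With fixed sum scaling, whose sum leaves out Rn45s, small RNAs and Rpl and Rps genes, the median log2 change of all tested genes was 0.26. Kcnq1 was then at -0.15 (limma adjusted p = 0.197) and Kcnh2 at -0.16 (limma adjusted p = 0.248). Kcne1 over Kcnq1, which no scaling alters, was 0.0534 ± 0.0170 in Pos Cre and 0.128 ± 0.0336 in Neg Cre libraries.

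**Figure D3:**
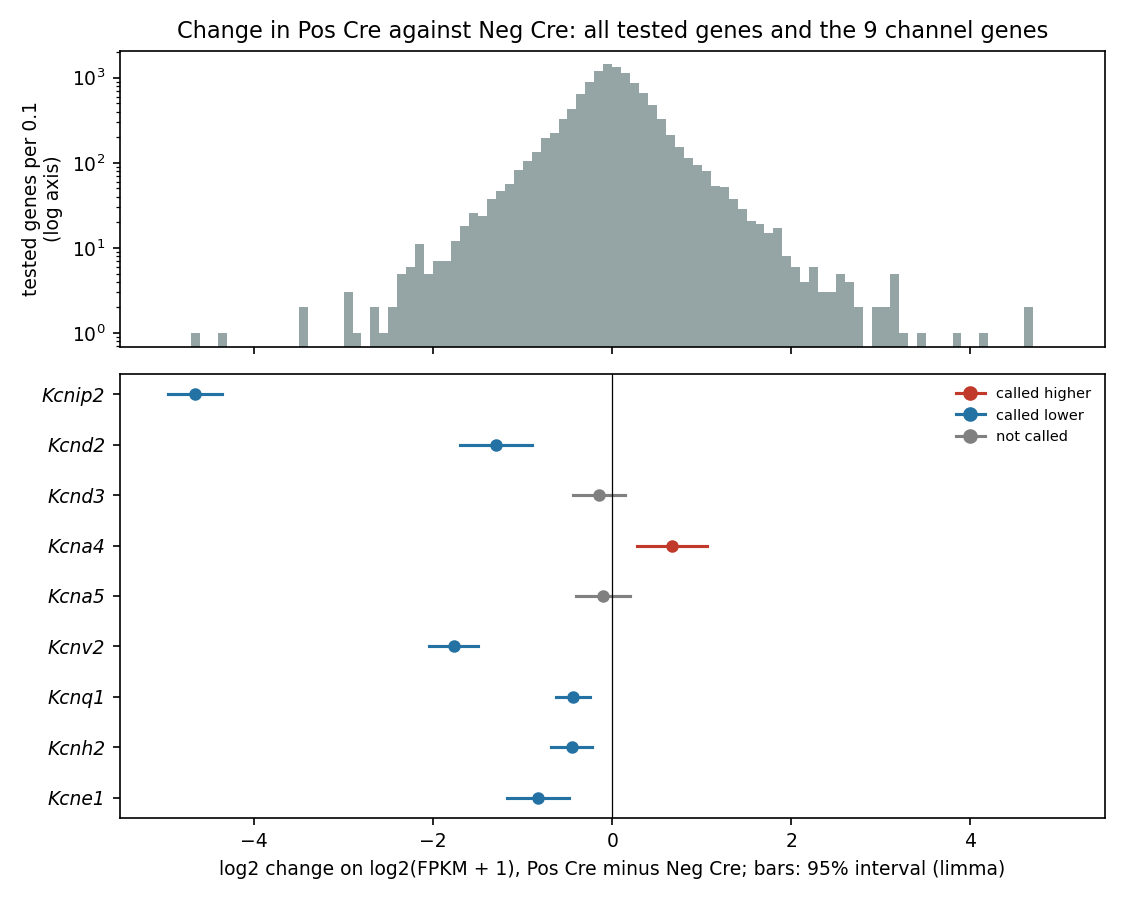
The upper panel counts the 11685 tested genes by log2 change (bins of 0.1, log axis), and the lower panel shows the change of each channel gene with its 95% interval from limma, Pos Cre minus Neg Cre. Kcnip2 lies at the lower end of all tested genes at -4.66, Kcna4 at 0.67 is the gene with an interval above 0, and those of Kcnd3 and Kcna5 include 0.

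The order of levels among the 9 genes differed between the groups. In Pos Cre libraries the order by mean was Kcnh2, Kcnq1, Kcnd2, Kcna5, Kcnd3, Kcna4, Kcnip2, Kcne1 and Kcnv2, and library ranges of neighbours overlapped for Kcnh2 and Kcnq1, for Kcnd2 and Kcna5 and for Kcnd3 and Kcna4. In Neg Cre libraries it was Kcnip2, Kcnh2, Kcnd2, Kcnq1, Kcna5, Kcnd3, Kcnv2, Kcne1 and Kcna4, where Kcnd2 overlapped both Kcnh2 and Kcnq1, Kcnd3 overlapped both Kcna5 and Kcnv2, and Kcne1 overlapped Kcna4. Kcna4, the least abundant of the 9 in Neg Cre libraries, was sixth in Pos Cre libraries. The 9 genes summed to 42.2 ± 3.14 FPKM in Pos Cre and 129.8 ± 4.36 FPKM in Neg Cre libraries, and without Kcnip2 to 40.5 ± 2.75 and 63.1 ± 6.05 FPKM in the same order.

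Few other voltage-gated potassium channel genes reached the level tested. Of 44 further genes of the family (other Kv1 to Kv12 subunits, KChIP, DPP, KCNE and beta subunits), 39 had a mean under 1 FPKM, 6 of them at the lowest value of 0.01 in every library. Of the 5 tested, 2 fell and 0 rose, at a median log2 change of 0.05. Of all tested genes, 19.4% fell and 19.7% rose. Kcna7, a Kv1.7 subunit, fell to 1.08 ± 0.205 FPKM in Pos Cre libraries, against 3.92 ± 0.262 FPKM in Neg Cre libraries (log2 change -1.25, limma adjusted p = 9.39e-06). Kcng2, an electrically silent Kv6.2 subunit, fell to 19.4 ± 3.50 FPKM in Pos Cre libraries, against 27.1 ± 4.05 FPKM in Neg Cre libraries (log2 change -0.47, limma adjusted p = 0.0242). The Kcng2 call was lost under fixed sum scaling (log2 change -0.17, adjusted p = 0.329), with no filter (-0.47, 0.108), in the trimmed libraries (-0.40, 0.0910) and without Neg Cre 2 (-0.38, 0.0551), all by limma. Kcne4, an accessory subunit, was not called.

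Among 16 genes whose proteins are known to bind or modify these channels, 6 rose and 2 fell (median log2 change -0.01). The shares over all tested genes were 19.7% higher and 19.4% lower. Fhl2, a LIM protein that binds minK, fell to 210 ± 33.3 FPKM in Pos Cre libraries, against 1523 ± 296 FPKM in Neg Cre libraries (log2 change -2.85, limma adjusted p = 9.00e-07). Rnf207, a ubiquitin ligase known in human cells to raise ERG1 levels, fell to 5.18 ± 0.860 FPKM in Pos Cre, against 9.32 ± 1.57 FPKM in Neg Cre libraries. In the low-Rn45s libraries, where the single control Neg Cre 2 was the lowest in Rnf207 of the 4, its log2 change was -0.28 and not called (adjusted p = 0.1805). Cttn, the actin-binding protein cortactin, which regulates Kv1.5 at the membrane, rose to 49.7 ± 3.45 FPKM in Pos Cre, against 19.6 ± 1.37 FPKM in Neg Cre libraries (log2 change 1.30, limma adjusted p = 2.04e-06).

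Of 14 transcription factors known to act on these channel genes or on the pattern of their expression, 5 fell and 1 rose (median log2 change -0.07). As 39.2% of all tested genes were called, 19.4% lower and 19.7% higher, these counts are a description of the list only. Tbx5 fell to 3.69 ± 0.362 FPKM in Pos Cre, against 7.05 ± 1.27 FPKM in Neg Cre libraries. The Iroquois factor Irx3 fell to 5.03 ± 1.47 FPKM in Pos Cre, against 9.13 ± 1.81 FPKM in Neg Cre libraries, with overlap of the groups, and Irx4 fell to 6.40 ± 0.677 FPKM in Pos Cre, against 10.2 ± 1.98 FPKM in Neg Cre libraries. Rela, a subunit of NF-kappaB, rose to 13.5 ± 0.402 FPKM in Pos Cre, against 10.1 ± 0.626 FPKM in Neg Cre libraries. In the high-Rn45s libraries the calls were lost for Irx3 (log2 change -0.61 against -0.76 in all libraries, limma adjusted p = 0.0986) and for Irx4 (-0.64 against -0.59, adjusted p = 0.0506). For Rela the call was lost in the low-Rn45s libraries (0.30 against 0.40, limma adjusted p = 0.0656). Under fixed sum scaling the Irx4 change was -0.31 and not called (limma adjusted p = 0.0849). A pair of genes with known roles was named after their values were seen. Irx5, which in mice represses Kcnd2 toward the inner wall, was at 2.07 ± 0.445 FPKM in Pos Cre and 2.54 ± 0.309 FPKM in Neg Cre libraries and was not called (limma adjusted p = 0.217). Klf15, which drives the daily rhythm of Kcnip2 in mice, was at 15.5 ± 1.08 FPKM in Pos Cre and 19.7 ± 3.15 FPKM in Neg Cre libraries (log2 change -0.32, limma adjusted p = 0.0416), with overlap of the groups. Its call was lost in 11 of 22 alternatives by limma. Under fixed sum scaling the change was -0.02 (adjusted p = 0.892). The call was also lost in the high-Rn45s libraries (adjusted p = 0.2115), in the trimmed libraries (0.176), with no filter (0.121), with Neg Cre 1 and 2 as 1 sample (0.0850), with the replicate block (0.0526) and without any one of Pos Cre 2, 3 and 4 and Neg Cre 1 and 2 (0.0693 to 0.113).

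Over the 8 libraries, the tested genes whose pattern lay nearest to that of Kcnip2 were Ces1d, Lrtm1 and Pln, at Euclidean distances of 0.516, 1.90 and 2.50 between centred log2(FPKM + 1) values. These distances mostly reflect the size of the difference between the groups. Ces1d, a carboxylesterase, was at 2.89 ± 1.04 FPKM in Pos Cre and 78.4 ± 9.62 FPKM in Neg Cre libraries. Pln, phospholamban, which restrains the calcium pump of the sarcoplasmic reticulum, was at 450 ± 31.7 FPKM in Pos Cre and 3408 ± 255 FPKM in Neg Cre libraries.

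Several lists of cell type markers held called genes, where 39.2% of all tested genes were called, 19.4% lower and 19.7% higher. Of 8 cardiomyocyte markers 7 fell and 0 rose, with Actn2, which is also among the 16 partner genes, at 716 ± 22.6 FPKM in Pos Cre and 722 ± 94.0 FPKM in Neg Cre libraries. Of 7 fibroblast markers 3 rose and 1 fell, and their sum was 602 to 680 FPKM in Pos Cre and 515 to 584 FPKM in Neg Cre libraries. Smooth muscle and pericyte markers had 3 of 7 rising and 1 falling, endothelial markers 3 of 6 falling, and macrophage markers 4 of 7 falling, with no rise in either of these last lists. Kcnd2 and Kcna4 are also neuronal genes: the 6 neuron and glia markers summed to 1.76 to 2.03 FPKM in Pos Cre and 2.34 to 2.52 FPKM in Neg Cre libraries and none reached the level tested. Of 4 atrial markers tested 0 were called, and of 2 conduction system markers tested 1 fell. No marker of these lists was at 0.01 FPKM in every library, and their part in the results was not tested.

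**Figure D4:**
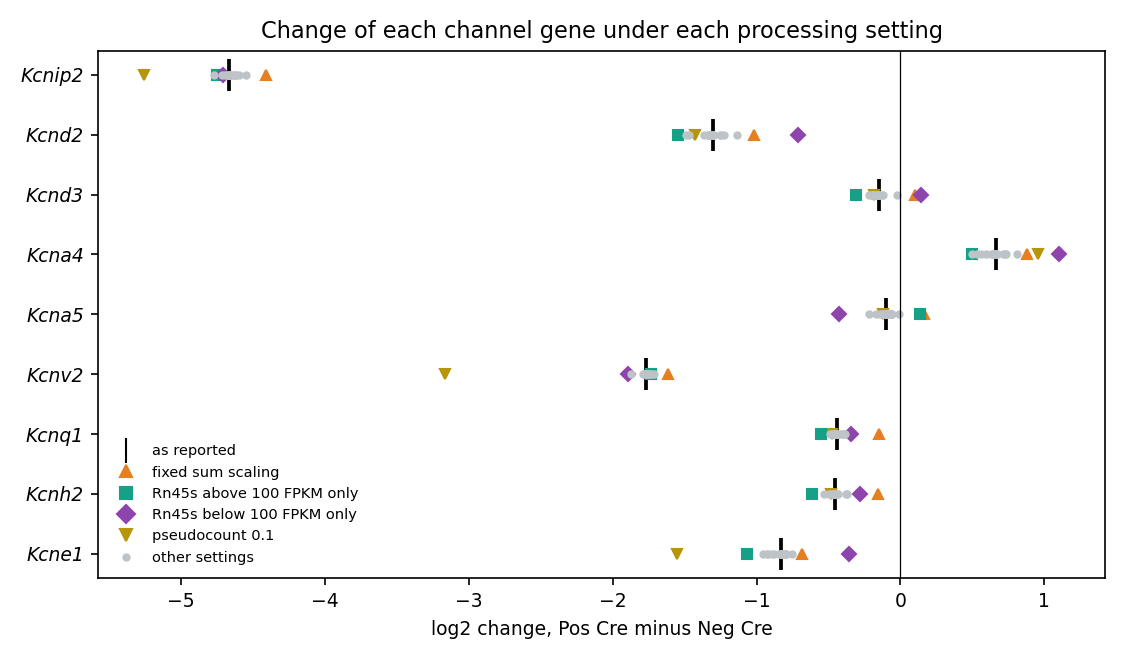
Log2 change of each channel gene, Pos Cre minus Neg Cre, as reported (black bar) and under every other processing setting (points), with fixed sum scaling, both Rn45s sets and a pseudocount of 0.1 marked. Kcnip2 stays between -5.26 and -4.41, Kcnd2 and Kcne1 are smallest in the low-Rn45s libraries at -0.71 and -0.36, and Kcnd3 and Kcna5 lie on both sides of 0.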

How the data were processed

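The deposited table holds FPKM for each gene symbol in each library. The submitters' processing notes name Cufflinks, Bowtie2 2.2.6 and the mm10 build. Per the labels' protocols, libraries were made from total RNA with a stranded kit that removes ribosomal RNA. The labels do not state the gene annotation, whether strand was used or any filter on genes. The lowest value, 0.01, is taken to stand for values too low to estimate. For 3 genes, 6 values are not numeric, and these genes were not tested.

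The test used limma 3.58.1 (R 4.3.3), with a variance trend, on log2(FPKM + 1) of the 11685 genes that averaged 1 FPKM or more, with Benjamini-Hochberg adjustment over all of them. The fit was tested on simulated data. The exact two-sided permutation p over the 70 assignments of libraries to groups was 0.0286, the smallest possible, for each of the 7 called channel genes, 0.371 for Kcnd3 and 0.486 for Kcna5. The value 0.0286 follows for any gene whose groups do not overlap, which held for 38.0% of all tested genes. It restates that lack of overlap and is not further support.

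Depth was estimated from 7863 genes with 1 GENCODE transcript of 500 to 4000 bases, where FPKM times length clusters at the value of 1, 2 and 3 fragments. Fragment numbers cover counting error only and use the longest GENCODE transcript. Coordinates are the table's loci with starts counted from 1.

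The channel genes, lists and Rn45s sets were chosen with earlier results of these data known. The text names all channel genes, called genes of the other-channel, partner and factor lists with a log2 change of at least 1 in size, filled up to 4 by the next largest, genes overlapping a channel gene, and the 3 tested genes nearest in pattern to Kcnip2, except that results of some genes are not reported here. Alternatives cover the pseudocount, the filter, the variance model, scaling, Rn45s, trimming, pairing and each library left out.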

Additional observations from a re-analysis of the deposited data

Results flagged for a closer look

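In 5 of 52 groups of 4 values examined, 1 library lay apart from the other 3 by more than the usual limit for 4 samples, and chance gives about 1 such group in 20. Kcnd2 was lowest in Pos Cre 1, at 4.72 FPKM against 5.96 to 6.05 FPKM in the other Pos Cre libraries, which widens the gap to the Neg Cre libraries. Kcne1 was highest in Pos Cre 4, at 0.870 FPKM against 0.405 to 0.447 FPKM, and the ratio of Kcne1 to Kcnq1 in the same library was 0.0788 against 0.0424 to 0.0464. Med13l was highest in Neg Cre 3, at 6.13 FPKM against 4.38 to 4.62 FPKM. Cttn was lowest in Neg Cre 2, at 17.5 FPKM against 20.1 to 20.4 FPKM.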

How the results depend on the processing

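Over 22 alternatives, the channel genes kept their side of the threshold in 187 of 194 values and lost a call in 7, and no called gene turned its direction. The count of channel genes called higher, 1 as reported, was 0 with no filter, with a minimum of 5 FPKM (which leaves 5 of the 9 tested, without Kcna4), in the high-Rn45s libraries and in the trimmed libraries. The count called lower was 4 to 6. Leaving out 1 library at a time gave 6 lower and 1 higher each time. Fixed sum scaling moved the calls among all genes to 5458 higher and 1011 lower, so that 84.4% were higher against 50.4% as reported. With the replicate block 3864 genes were called against 4575, and no channel gene's call changed. Same-numbered libraries did not deviate together (correlations -0.16 to -0.08). The difference between the Rn45s sets was not removed from these deviations, so whether the numbers pair the libraries cannot be told. Neg Cre 1 and 2 differed by 0.355 (root mean square, log2), other Neg Cre pairs by 0.357 to 0.463, and as 1 sample they left all calls of channel genes in place. In Pos Cre 1 depth limits Kcnv2 and Kcne1, which rest on the fewest fragments, and also Kcnip2, at about 11.8 fragments.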
